A study of Homo sapiens with 8 samples.

Results

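The 10 genes described here encode the enzymes that add and remove H3K4me3, together with a pair of their partners, and the values are those of H3K4me3 itself at the promoters of these genes. They were chosen by name from the 20033 protein-coding genes of the annotation, as SETD1A, SETD1B, KMT2A, KMT2B, KMT2C, KMT2D, KDM5A, KDM5B, WDR5 and CXXC1. A value was taken from the broad H3K4me3 peaks within 3 kb on either side of the 5′ end of each gene's MANE Select transcript, the reference transcript that RefSeq and GENCODE share. The first 6 genes encode methyltransferases and KDM5A and KDM5B encode demethylases. WDR5 and CXXC1 encode neither kind of enzyme but subunits that methyltransferase complexes carry.

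H3K4me3 is the trimethylation of lysine 4 of histone H3, a mark found around the 5′ ends of active genes. It is written by the SET domain enzymes of the COMPASS family. SETD1A and SETD1B are the broadly acting writers of H3K4me3, KMT2A and KMT2B act at chosen promoters such as developmental genes, and KMT2C and KMT2D place mainly monomethylation at enhancers. WDR5 is a core subunit shared by all these complexes, and CXXC1 (CFP1) brings SETD1A and SETD1B to unmethylated CpG dinucleotides through its CXXC zinc finger. KDM5A and KDM5B take the methyl groups off again.

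The libraries came from U2OS, a human osteosarcoma cell line. The 3 wild-type (WT) libraries and the 3 ZBTB48 knockout (KO) libraries were each made from a separate clone, and per the labels all 6 clones had been given 250 U/ml IFNγ for 24 h. A legend in the study's own text gives a longer time for the H3K4me3 tracks, so the length of the treatment differs between the sources. ZBTB48 is a zinc finger protein that binds telomeric repeats and gene promoters. The 8 samples held no untreated cells, and each comparison below sets WT against KO under IFNγ. The exact permutation p-values rank the difference between the WT and KO means among the 20 assignments of the 6 libraries to the genotypes. Each clone gave a single library, so spread between clones cannot be told apart from spread between libraries. The 2 WT input libraries were not analysed here. The 6 libraries with lists are called WT replicates 1 to 3 and KO replicates 1 to 3, and replicate values are given in that order.

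Each library had its own list of 21712 to 26370 peaks, with no read counts, so that depth is unknown here. WT replicates 1 and 2 had broader peaks than the other 4 libraries. The median covered length of promoters, that is the bp under peaks within 3 kb of the 5′ end over all promoters with any, was 3274 and 3215 bp in those 2 libraries. It was 1955 bp in WT replicate 3 and 1912, 1755 and 1655 bp in the KO replicates. WT replicate 3 thus lay near the KO libraries and not near the other 2 WT libraries. Covered lengths are for this reason also given relative to the library's own median, and for WT replicate 3 against the KO libraries alone. The labels give the 2 input libraries the clone numbers 3 and 4, those of WT replicates 1 and 2, and use of an input in peak calling is not given in the sources used here. Its part in the width of the peaks was not tested. ZBTB48 itself, whose peak does not show whether its protein is lost, had covered lengths of 3161, 3330 and 1821 bp in WT and 1855, 1555 and 1241 bp in KO. Of genes chosen after their values were seen, RUNX2 and SPARC, both active in bone-forming cells, had a peak over the 5′ end in all 6 libraries. COL1A1 had one over the 5′ end in 3 libraries and within 3 kb in all 6. COL1A2, the endothelial gene CDH5 and the blood cell gene PTPRC had no peak within 3 kb in any, while the epithelial gene EPCAM had one over its 5′ end in all 6.

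RefSeq promoter sequences, from 250 bases before to 50 bases after the start, were matched at the same 5′ end for 9 of the 10 genes (build GRCh38.p14). The entry for SETD1B was missing. The sequences of 4 are shown 5′ to 3′ on the strand of the gene, since they span the range of CpG content among these genes and hold the single telomeric motif found. In the first 3, each CpG is in capitals. KMT2C had the most CpG and the shortest peak, KMT2B many CpG and one of the longest, and KDM5A the fewest CpG.
KMT2C, chr7:152435954-152436253, minus strand: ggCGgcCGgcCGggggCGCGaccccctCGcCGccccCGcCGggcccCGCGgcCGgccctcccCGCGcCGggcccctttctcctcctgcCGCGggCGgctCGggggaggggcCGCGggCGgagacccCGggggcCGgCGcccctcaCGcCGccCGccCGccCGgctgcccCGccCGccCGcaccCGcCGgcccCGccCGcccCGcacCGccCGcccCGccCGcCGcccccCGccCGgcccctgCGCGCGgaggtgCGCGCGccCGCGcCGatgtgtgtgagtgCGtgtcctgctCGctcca
KMT2B, chr19:35717753-35718052, plus strand: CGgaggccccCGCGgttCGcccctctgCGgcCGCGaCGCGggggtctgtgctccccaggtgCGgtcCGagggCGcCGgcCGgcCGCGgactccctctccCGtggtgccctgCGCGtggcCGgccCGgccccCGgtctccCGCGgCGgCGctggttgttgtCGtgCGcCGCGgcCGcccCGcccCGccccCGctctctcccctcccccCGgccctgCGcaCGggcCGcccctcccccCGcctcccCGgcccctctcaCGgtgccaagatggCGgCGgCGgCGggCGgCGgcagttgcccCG
KDM5A, chr12:389271-389570, minus strand: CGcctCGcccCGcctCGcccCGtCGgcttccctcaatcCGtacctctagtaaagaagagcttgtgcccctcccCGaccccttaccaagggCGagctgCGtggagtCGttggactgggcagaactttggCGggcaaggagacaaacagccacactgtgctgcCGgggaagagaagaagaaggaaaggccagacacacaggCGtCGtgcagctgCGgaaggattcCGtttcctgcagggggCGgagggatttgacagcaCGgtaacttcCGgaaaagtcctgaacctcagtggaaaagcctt
In KDM5B the capitals mark CCCTAA, which is the telomeric repeat TTAGGG read on the other strand.
KDM5B, chr1:202808372-202808671, minus strand: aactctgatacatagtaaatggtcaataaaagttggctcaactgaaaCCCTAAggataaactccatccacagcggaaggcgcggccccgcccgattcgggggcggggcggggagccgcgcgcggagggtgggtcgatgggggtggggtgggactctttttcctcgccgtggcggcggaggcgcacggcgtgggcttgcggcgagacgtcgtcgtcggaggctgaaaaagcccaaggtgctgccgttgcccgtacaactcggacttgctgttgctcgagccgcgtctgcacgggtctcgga

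The CpG count ran from 20 in KDM5A to 56 in KMT2C. Between them lay KMT2D with 27, CXXC1 with 28, SETD1A with 30, WDR5 with 31, KDM5B with 34, KMT2A with 36 and KMT2B with 48. The median of the 9 was 31, against 24 over the 14586 protein-coding promoters matched in the same way. Promoters without a peak in any library had a median of 5 CpG and those with a peak in all 6 a median of 28. KDM5A and KMT2D lay below the latter median, CXXC1 at it and the other 6 above it. The 6 letters TTAGGG, searched on both strands with no other motif, were in 1 of the 9 promoters (KDM5B) and in 8.56% of all 14586. A match of letters is a description and not a binding site.

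All 10 genes had a peak within 3 kb in all 6 libraries, as did 66.9% of all protein-coding promoters. All 10 also had a peak directly over the 5′ end in all 6 libraries, which 61.3% of promoters had. The promoters of writers, erasers and subunits therefore carried called H3K4me3 in both genotypes without exception, and what differed among them was how far the peaks reached. Averaged over the 6 libraries of both genotypes, SETD1B had the longest covered length with 4402 bp, followed by KMT2B with 4172 bp, KMT2A with 3921 bp, KMT2D with 3850 bp and KDM5B with 3740 bp. WDR5 followed with 3225 bp, KDM5A with 2910 bp, CXXC1 with 2789 bp and SETD1A with 2448 bp. KMT2C came last with 677 bp. Each gene exceeded the next in this order in only 3 to 5 of the 6 libraries, so neighbours did not differ beyond the spread between libraries. The exception was SETD1A over KMT2C, which held in 6 of 6. Of the 10 genes, 8 lay above the library's median promoter in all 6 libraries, against 34.8% of the promoters called in all 6. SETD1A and KMT2C were the other 2. Among the 28 related genes described further below, 15 also lay above the library's median promoter in all 6 libraries.

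**Figure D1:**
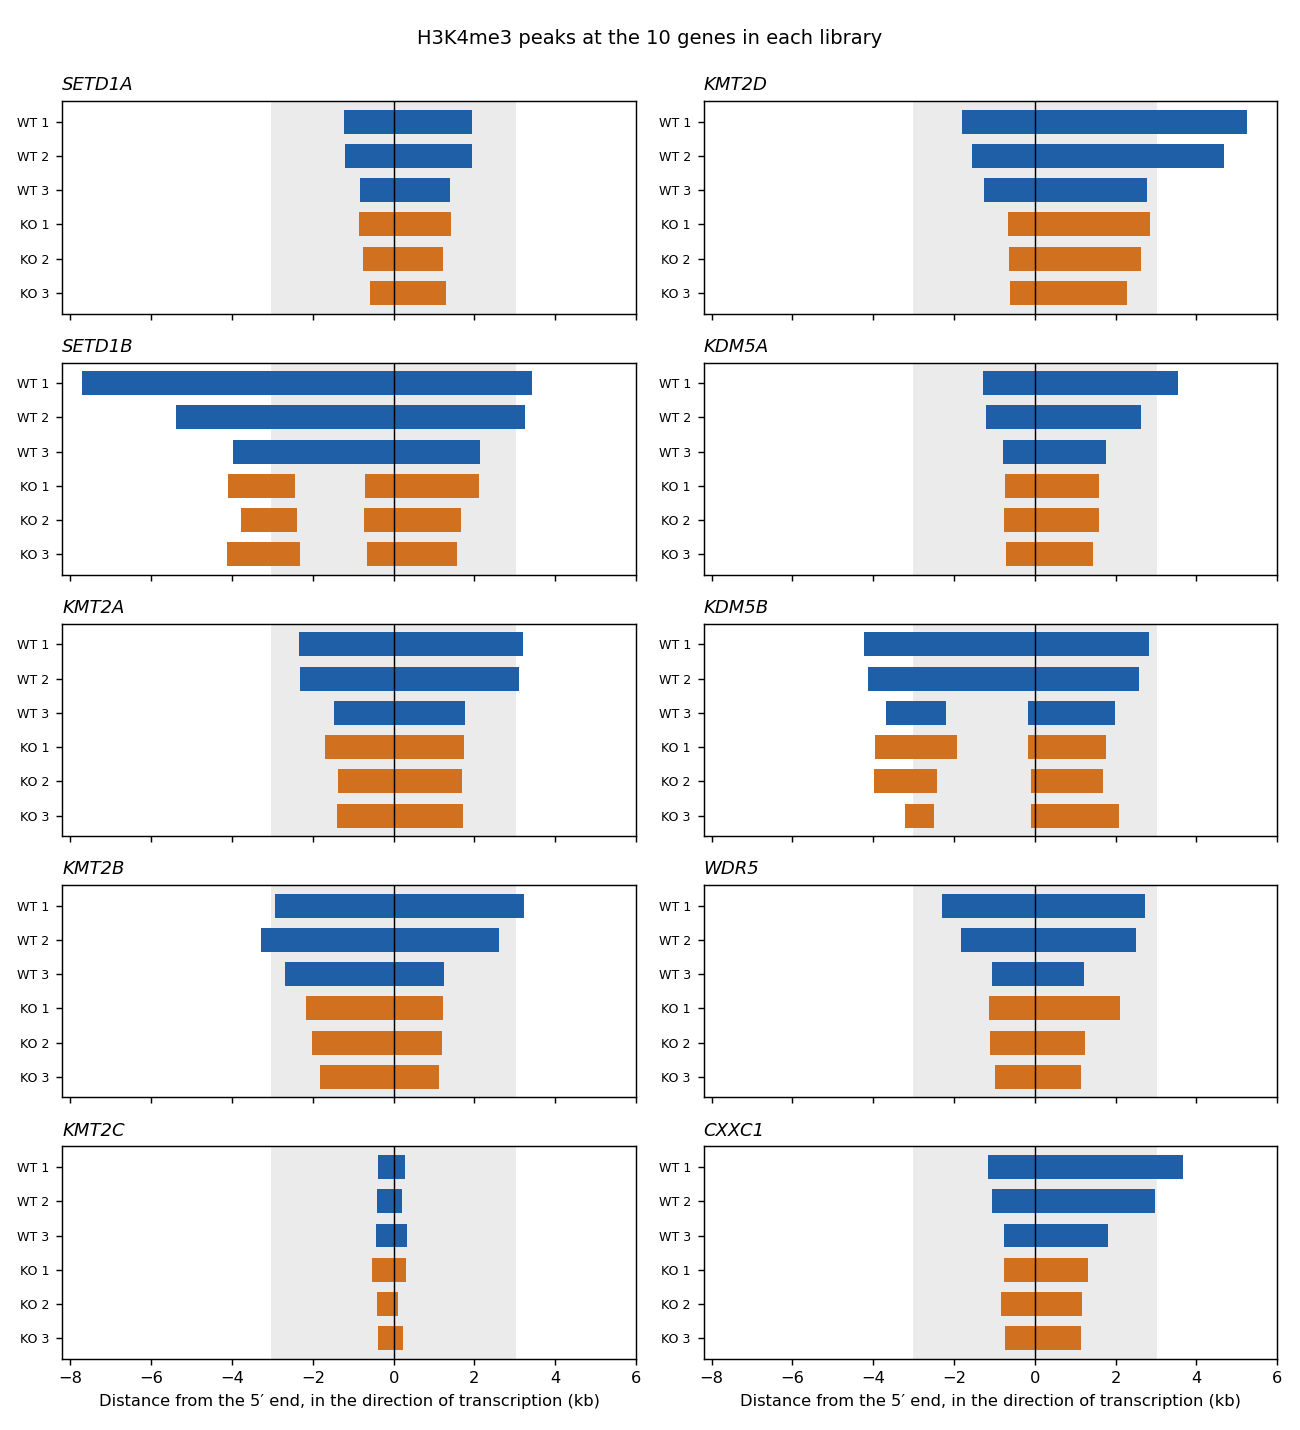
Broad H3K4me3 peaks (bars) at the 10 genes in the 3 WT (blue) and 3 KO (orange) libraries, by distance from the 5′ end in kb, upstream to the left. The grey band is the 3 kb window on either side. The peak of SETD1B was continuous in WT and divided in KO, and that of KMT2C was short in all 6 libraries.

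Among the methyltransferases, SETD1B, on chromosome 12 (121804009 to 121832656 of GRCh38, plus strand, 17 exons), had the longest peaks in WT but not in KO, where KMT2D had the longest covered length in replicates 1 and 2 and KMT2A in replicate 3. The covered length was 6001, 6001 and 5132 bp in WT and 3389, 2988 and 2901 bp in KO. The first pair of values fill the window, so that WT replicates 1 and 2 could not have been longer. All WT values lay above all KO values, with 5711 ± 502 bp (SD, n = 3) against 3093 ± 260 bp (SD, n = 3) and a difference of 2619 bp (two-sided exact permutation p = 0.1, the smallest p that 3 against 3 allows; 0.196 after Benjamini-Hochberg adjustment over the 14422 promoters covered in at least 1 library). In WT, 1 peak ran without a break across the 5′ end, for 11132, 8663 and 6111 bp. In KO, each of the 3 lists held 2 peaks there, with a stretch free of peaks of 1729, 1672 and 1680 bp between them. In KO replicate 1 this stretch ran from 2448 to 718 bp before the 5′ end. The peak over the 5′ end thus reached 7715, 5399 and 3979 bp upstream in WT and 718, 723 and 649 bp upstream in KO. It covered 4 exons in the WT libraries and 3 or 4 in the KO libraries. Under the same peak, in all 6 libraries, lay the 5′ ends of the lncRNA LINC01089, 103 bp upstream on the other strand, and of RHOF, 606 bp upstream on the other strand. In WT the continuous peak also took in the 5′ end of the lncRNA ENSG00000274292, 3212 bp upstream on the same strand. In KO that 5′ end lay under the second, separate peak. In WT replicate 1 the peak reached a further lncRNA, ENSG00000272849, 6498 bp upstream. A shortening upstream of SETD1B cannot be told apart from one downstream of RHOF. A further peak inside the gene, outside the window, was called in all 6 libraries.

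SETD1A, on chromosome 16 (30957294 to 30984664, plus strand, 19 exons), encodes the closest relative of SETD1B and had much shorter peaks. Its covered length was 3183, 3147 and 2233 bp in WT and 2266, 1984 and 1877 bp in KO. WT replicate 3 lay just below KO replicate 1, so the groups overlapped, and the means were 2854 ± 538 bp (SD, n = 3) and 2042 ± 201 bp (SD, n = 3) (exact permutation p = 0.2). Relative to the library median it was 0.972, 0.979 and 1.14 in WT and 1.19, 1.13 and 1.13 in KO. Its peak also covered the 5′ end of an unnamed lncRNA, ENSG00000275263, 555 bp upstream on the other strand.

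KMT2A (MLL1), on chromosome 11 (118436456 to 118526832, plus strand, 36 exons), and KMT2B (MLL2), on chromosome 19 (35717973 to 35738880, plus strand, 37 exons), are a related pair and both had long peaks. KMT2A had covered lengths of 5334, 5312 and 3244 bp in WT and 3456, 3071 and 3107 bp in KO, with WT replicate 3 inside the KO range. KMT2B had 5934, 5607 and 3930 bp in WT and 3403, 3211 and 2946 bp in KO. The groups overlapped at KMT2A (4630 ± 1200 bp against 3211 ± 213 bp, SD, n = 3; exact permutation p = 0.2) and did not overlap at KMT2B (5157 ± 1075 bp against 3187 ± 229 bp, SD, n = 3; exact permutation p = 0.1). At KMT2B the difference of WT replicate 3 from the KO libraries lay upstream, where its peak reached 2686 bp against 2170, 2022 and 1834 bp. Downstream it reached 1243 bp against 1232, 1188 and 1111 bp. At KMT2A all 6 peaks ended within the first intron and covered 1 exon, and the 5′ end of the lncRNA ENSG00000255384, 1286 bp upstream on the other strand, lay under all of them.

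KMT2D (MLL4), on chromosome 12 (49018975 to 49060794, minus strand, 55 exons), had covered lengths of 4802, 4549 and 4057 bp in WT and 3513, 3282 and 2898 bp in KO. No WT value fell in the KO range, and the means were 4469 ± 379 bp (SD, n = 3) and 3231 ± 311 bp (SD, n = 3) (exact permutation p = 0.1). The upstream edge carried the separation. It lay 1801, 1548 and 1269 bp before the 5′ end in WT and 662, 645 and 618 bp before it in KO, while the downstream edge of WT replicate 3, at 2787 bp, was short of the 2850 bp of KO replicate 1. A separate peak lay at the far end of the gene in all 6 libraries, and 1 short peak inside the gene was called in KO replicate 2 only.

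KMT2C (MLL3), on chromosome 7 (152134922 to 152436644, minus strand, 59 exons), is the closest relative of KMT2D and differed from the other 9 genes in length of peak. Its covered length was 674, 631 and 768 bp in WT and 860, 517 and 613 bp in KO. These values were below those of all other members in every library and at the 1.75 to 3.64 percentile of covered promoters. WT and KO overlapped, with 691 ± 70.1 bp (SD, n = 3) and 663 ± 177 bp (SD, n = 3) (exact permutation p = 0.8). The difference of 27.7 bp changed sign when WT replicate 3 (−10.8 bp) or KO replicate 2 (−45.5 bp) was left out. The peak reached 383 to 547 bp upstream and 96 to 338 bp downstream and in the 2 libraries where it was longest, WT replicate 3 and KO replicate 1, it took in the 5′ end of the pseudogene FABP5P3, 308 bp downstream on the other strand.

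The short peak stood against the CpG content of the same promoter. With 56 CpG in 300 bases KMT2C lay at the 99.8 percentile of promoters, as the sequence above shows, and KMT2B with 48 at the 97.6 percentile. A further comparison was chosen after the values were seen and took the CpG count of KMT2C itself as the cut. Of 41 promoters with at least 56 CpG that were called in all 6 libraries, KMT2C was the 1 with the shortest mean covered length, the median of the 41 being 2686 bp. Across all 10087 matched promoters called in all 6 libraries, CpG count and mean covered length had a Spearman correlation of 0.228, as a description over promoters that share libraries and base composition. KMT2C also had more repeated sequence than the other 9 genes. Within 3 kb of the KMT2C 5′ end, 22.4% of the 50-base words of the reference occurred again elsewhere in the genome, against 0 to 5.95% at the other 9 genes. For 100-base words it was 3.56% against 0%. The share was 5.8% in the 500 bp before the 5′ end, 12% in the 500 bp after it and 20.4 to 35.6% in the bins from 500 bp downstream and from 1000 bp upstream outwards, with 7.2% between 1000 and 500 bp upstream. Among the 28 related genes described further below, BPTF had the highest shares, 13.9% of 50-base and 3.08% of 100-base words. Its covered lengths were 1490 to 3749 bp. The authors removed multimapping reads. The part of repeated sequence, and of base composition, in the length of the KMT2C peak was not tested.

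**Figure D2:**
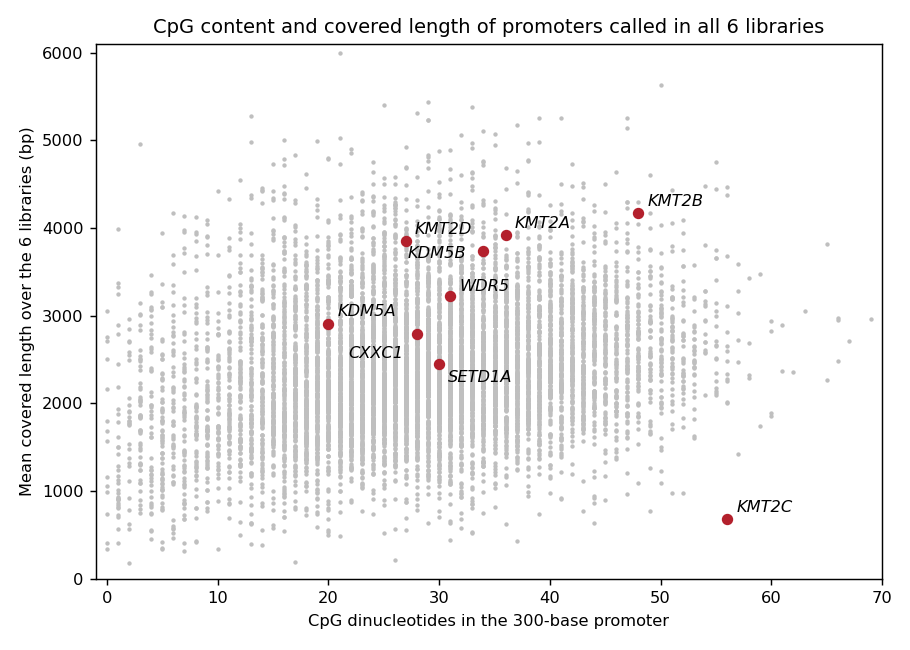
CpG dinucleotides in the 300-base RefSeq promoter against the mean covered length over the 6 libraries in bp, for 10087 promoters called in all 6 (grey) and the 9 matched genes (red). KMT2C, with 56 CpG and 677 bp, sits below the other promoters of like CpG content.

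Of the subunits, CXXC1, on chromosome 18 (50282343 to 50287839, minus strand, 15 exons), had covered lengths of 4153, 4030 and 2583 bp in WT and 2068, 2018 and 1880 bp in KO. The groups did not overlap, with 3589 ± 873 bp (SD, n = 3) against 1989 ± 97.4 bp (SD, n = 3) (exact permutation p = 0.1). Here the gene-body side differed. The downstream edge lay at 3679, 2962 and 1819 bp in WT and at 1315, 1174 and 1136 bp in KO, so that the peak covered 10, 8 and 5 exons of this compact gene in WT and 3 in each KO library. Upstream, WT replicate 3 reached 763 bp and lay within the KO range of 743 to 843 bp.

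WDR5, on chromosome 9 (134135365 to 134159968, plus strand, 14 exons), had 5021, 4334 and 2280 bp in WT and 3257, 2334 and 2125 bp in KO. WT replicate 3 minus KO replicate 1 was −977 bp, the widest overlap between genotypes among the 10 genes, and the means were 3878 ± 1426 bp and 2572 ± 602 bp (SD, n = 3; exact permutation p = 0.3). For WT replicate 3 alone against the KO mean the difference turned to −292 bp. The lncRNA WDR5-DT starts 310 bp upstream on the other strand, under the peak in all 6 libraries.

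Of the demethylases, KDM5A, on chromosome 12 (280057 to 389320, minus strand, 28 exons), had covered lengths of 4293, 3825 and 2542 bp in WT and 2335, 2332 and 2134 bp in KO. The groups did not overlap (3553 ± 907 bp against 2267 ± 115 bp, SD, n = 3; exact permutation p = 0.1), but WT replicate 3 led the highest KO value by only 207 bp, a lead that 14.8% of promoters reached. KDM5A shares its promoter with CCDC77, a gene that starts 28 bp away in the opposite direction, so the peak belongs to both. KDM5B, on chromosome 1 (202724495 to 202808487, minus strand, 27 exons), had 5837, 5580 and 2954 bp in WT and 3011, 2364 and 2695 bp in KO, with WT replicate 3 inside the KO range (4790 ± 1595 bp against 2690 ± 324 bp, SD, n = 3; exact permutation p = 0.2). In WT replicates 1 and 2 a single peak reached 4218 and 4139 bp upstream, over the 5′ end of the lncRNA PCAT6, 2429 bp upstream on the other strand. In the other 4 libraries the peak ended 97 to 173 bp upstream, and a second peak lay beyond a stretch of 1758 to 2388 bp without peaks. At KDM5B the divided peak was thus shared by WT replicate 3 and the KO libraries. At SETD1B, WT replicate 3 had 1 peak and the KO libraries 2. That peak had a fold enrichment of 1.70, and the peaks over the 5′ end in KO had 1.83, 2.04 and 2.02. No KO library had the broader peaks of WT replicates 1 and 2. Library kind and genotype are therefore set apart by WT replicate 3 alone, and the contrast between these genes rests on 1 library.

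**Figure D3:**
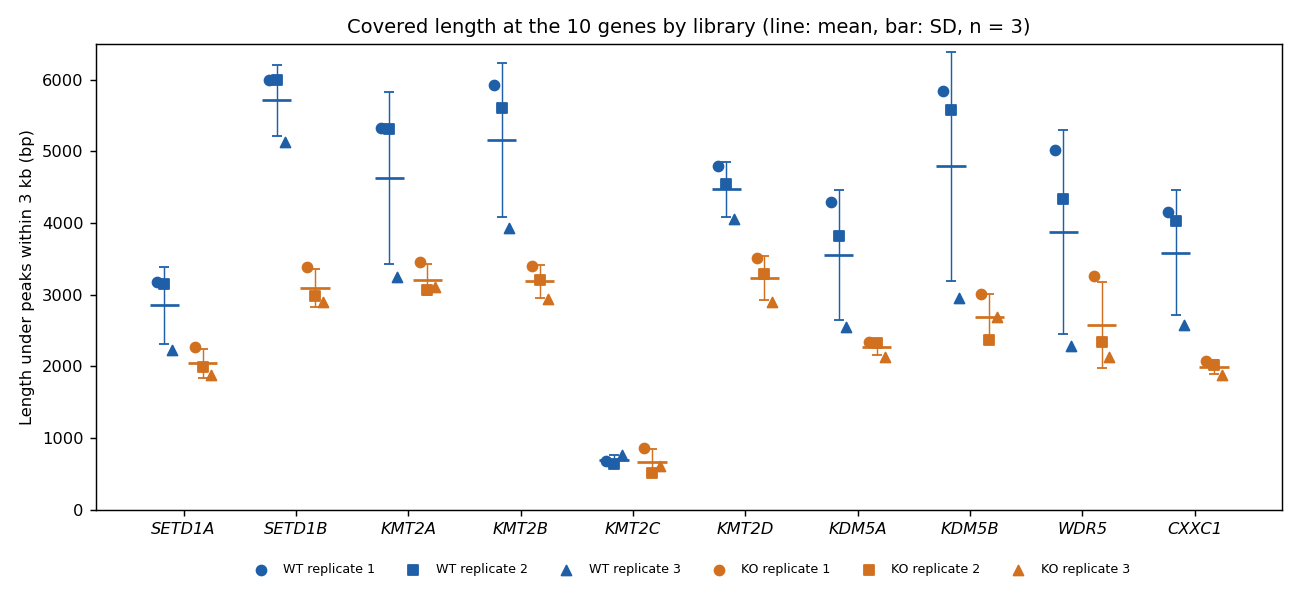
Covered length in bp within 3 kb of the 5′ end at the 10 genes, by library (circles, squares and triangles: replicates 1, 2 and 3; blue: WT; orange: KO), with the mean and SD (n = 3). WT replicates 1 and 2 are highest at 9 of the 10 genes, and WT replicate 3 stands above all KO libraries at SETD1B, KMT2B, KMT2D, KDM5A and CXXC1.

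In all, 5 of the 10 genes had all WT covered lengths above all KO covered lengths, namely SETD1B, KMT2B, KMT2D, KDM5A and CXXC1. Over all covered promoters 50.8% did, so a count of 5 is that of the background. None had all WT below all KO, as against 0.111% of all promoters. The median difference over the 10 genes was 1363 bp, beside 965 bp over all covered promoters. After adjustment over all covered promoters, the exact permutation p was 0.196 for these 5 genes, 0.245 for SETD1A, KMT2A and KDM5B, 0.335 for WDR5 and 0.837 for KMT2C. With 3 against 3 no promoter could go below 0.1 before adjustment.

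Relative to the median promoter of the same library, the picture became narrower. SETD1B and CXXC1 kept all WT values above all KO values, 2 of the 10 genes beside 5.99% of all promoters. SETD1B was at 1.83, 1.87 and 2.63 in WT and 1.77, 1.70 and 1.75 in KO (exact permutation p = 0.1, adjusted 0.559), the first pair again held down by the window. CXXC1 was at 1.27, 1.25 and 1.32 in WT and 1.08, 1.15 and 1.14 in KO (exact permutation p = 0.1, adjusted 0.559). KMT2A lay the other way, at 1.63, 1.65 and 1.66 in WT and 1.81, 1.75 and 1.88 in KO, 1 of 10 beside 11.9% of all promoters. The remaining 7 genes overlapped, KMT2B by the narrow margin of WT 1.81, 1.74 and 2.01 against KO 1.78, 1.83 and 1.78. The median relative difference over the 10 genes, WT minus KO, was −0.0513, and −0.0241 over all covered promoters.

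**Figure D4:**
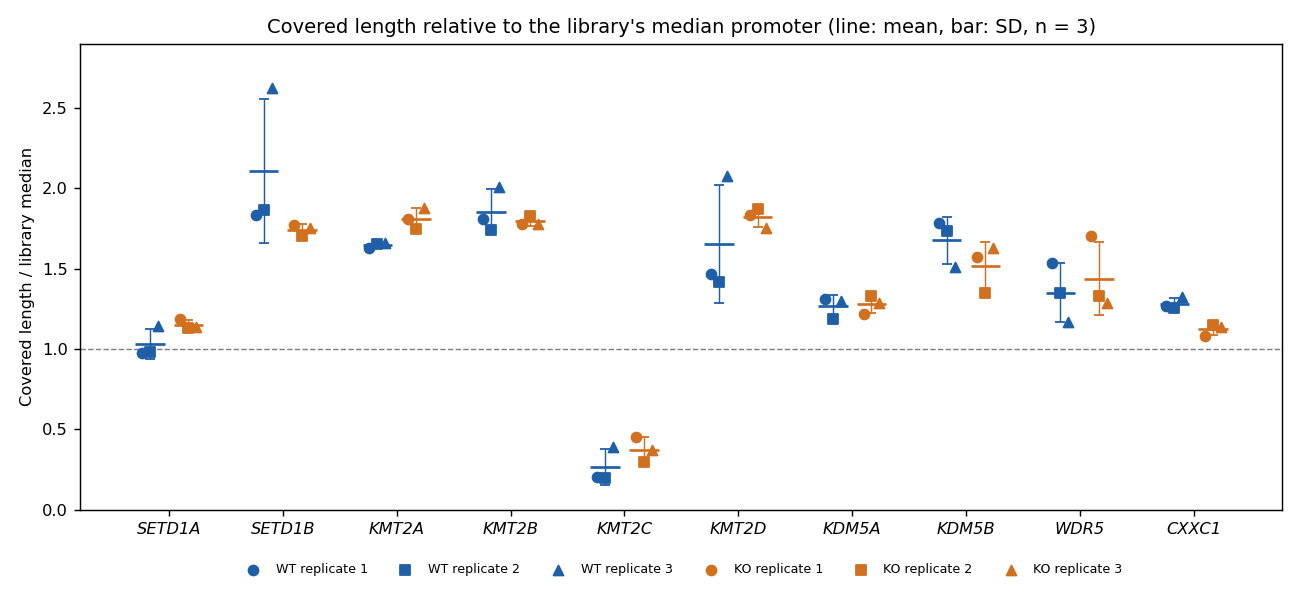
Covered length divided by the library's median over covered promoters (dashed line: 1), by library, with the mean and SD (n = 3) and the same symbols. SETD1B and CXXC1 have all WT above all KO, KMT2A all WT below all KO, and KMT2C lies at 0.196 to 0.450 throughout.

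Since the window cut the longest peaks, the whole width of the peak over the 5′ end was also divided by the library's median of such widths, a measure chosen after the values were seen. SETD1B then stood at 3.32, 2.65 and 3.09 in WT and 1.47, 1.35 and 1.33 in KO. CXXC1 stood at 1.44, 1.23 and 1.31 against 1.07, 1.14 and 1.13, and KMT2D at 2.102, 1.91 and 2.05 against 1.82, 1.85 and 1.73. These 3 genes had all WT above all KO, as had 6.4% of the 12288 promoters with such a peak in all 6 libraries. KMT2A again lay below, with 1.65, 1.65 and 1.64 against 1.79, 1.73 and 1.86, as did 11.9% of promoters on this measure. As a percentile of covered length within the library, KMT2A overlapped, at 95.5, 96.4 and 93.9 in WT and 95.8, 95.5 and 97.1 in KO.

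Within the 4 libraries of like peak width, WT replicate 3 exceeded all 3 KO libraries at 5 of the 10 genes, beside 54.4% of promoters. It did so by at least 500 bp at 4, beside 5.53% of promoters. These were SETD1B, ahead by 1743 bp, KMT2D by 544 bp, KMT2B by 527 bp and CXXC1 by 515 bp. A lead as long as that of SETD1B was found at 0.203% of promoters, 29 of 14281, SETD1B included. With 1 WT library there is no replicate check on these leads, and 3 of the 4 lay just past the 500 bp mark. Most of the 10 genes had longer covered lengths than the median promoter, and a lead in bp takes no account of that. Relative to the library median, WT replicate 3 exceeded all 3 KO libraries at the same 4 genes, beside 25.02% of promoters.

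The fold enrichment of the peaks, which the peak caller averages over a broad peak, ranked several of these genes in opposite ways in the 2 kinds of library. The peak over the 5′ end of SETD1B stood at the 88.1 and 85.1 percentile of its list in WT replicates 1 and 2 and at the 0.262 to 0.728 percentile in the other 4. KMT2A stood at 94.9 and 76.7 against 3.75 to 13.3, and KMT2D at 92.8 and 88.4 against 2.31 to 13.96. KMT2C ran the other way, at 24.1 and 24.1 in WT replicates 1 and 2 and at 81.4, 92.6, 58.6 and 52.7 in the others. SETD1A fell only to the middle of the lists, from 92.4 and 81.4 to between 40.0 and 47.9. At CXXC1 the 2 kinds overlapped, with 57.2 and 51.7 against 39.4 to 53.3. Over all peaks at 5′ ends, width and fold enrichment had a Spearman correlation of 0.376 and 0.352 in WT replicates 1 and 2 and of −0.779 to −0.808 in the other 4, given as a description over peaks of 1 library each. When peaks with a fold enrichment of at least 4 alone were kept, KMT2C was the 1 gene of the 10 with a peak left in all 6 libraries, and the count of genes with all WT above all KO fell to 0, beside 31.7% of the promoters covered under that threshold. SETD1B, KMT2A, KMT2B, KMT2D and KDM5B then had no peak in WT replicate 3 or in any KO library.

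**Figure D5:**
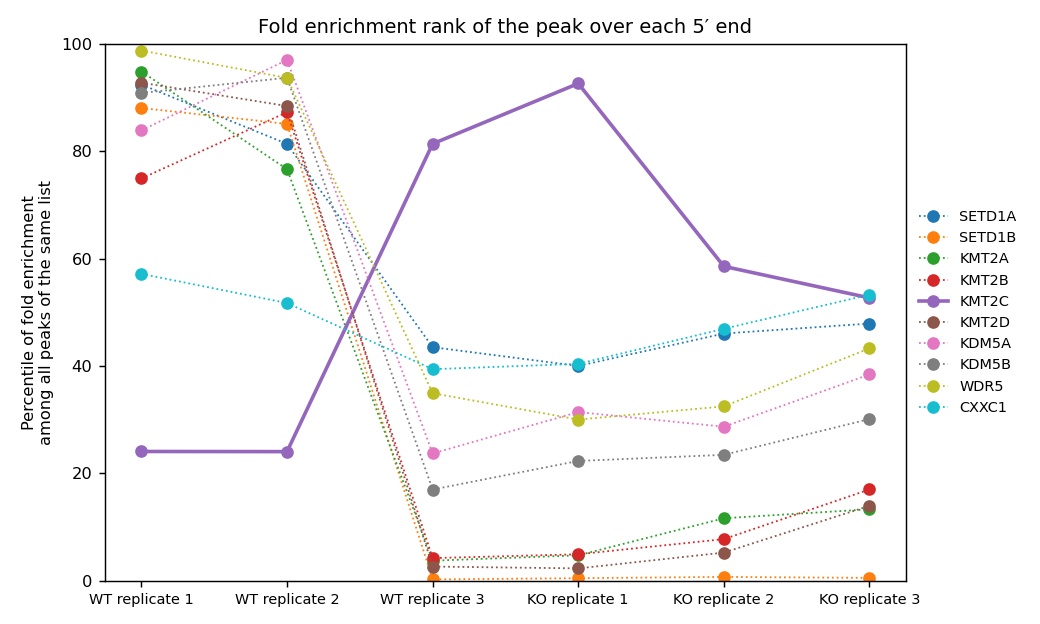
Percentile of the fold enrichment of the peak over the 5′ end among all peaks of the same list, for the 10 genes in each library. The lines join the values of 1 gene. Genes with long peaks such as SETD1B, KMT2A and KMT2D drop from WT replicates 1 and 2 to the other 4 libraries, whereas KMT2C rises from 24.1 to between 52.7 and 92.6.

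The other genes of the pathway were taken as 3 lists, 28 genes in all. They were 12 further subunits of the methyltransferase complexes (ASH2L, RBBP5, DPY30, HCFC1, WDR82, MEN1, PSIP1, NCOA6, PAXIP1, PAGR1, KDM6A and BOD1), 4 other H3K4 demethylases (KDM5C, KDM1A, KDM1B and RIOX1), and 12 proteins that bind H3K4me3 or associate with it (TAF3, ING1, ING2, ING4, ING5, PHF2, PHF8, CHD1, BPTF, SGF29, PHF13 and SPIN1). All 28 had a peak within 3 kb in all 6 libraries, and 27 had one over the 5′ end in all 6. The exception was PAGR1, a subunit of the KMT2C and KMT2D complexes, with covered lengths of 6001, 6001 and 1859 bp in WT and 2156, 1466 and 1126 bp in KO. All WT exceeded all KO at 16 of the 28 and lay below at 0, counts to be read beside the 50.8% and 0.111% of all promoters. Relative to the library median, PHF2, a JmjC protein with a PHD finger that reads H3K4me3, had all WT above all KO. HCFC1, a host cell factor subunit of the SETD1 and KMT2A complexes, and the PHD finger proteins ING1 and ING5 had all WT below all KO. Read beside 5.99% and 11.9% of all promoters, 1 and 3 of 28 are near the background. The window let no promoter exceed 1.83 and 1.87 in WT replicates 1 and 2. KO values were 2.43, 2.25 and 2.51 at HCFC1 and 2.23, 2.47 and 2.58 at ING1. At these genes the place of WT replicates 1 and 2 below KO was thus fixed by the window. On the uncut peak width, PAXIP1, ING1 and ING5 had all WT below all KO, and HCFC1 did not.

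Within the lists, mean covered length ran from 1731 bp at DPY30, a core subunit, to 4810 bp at HCFC1. It ran from 2298 bp at KDM1B to 3032 bp at KDM5C, the X-linked member of the KDM5 family, and from 1514 bp at ING4 to 4716 bp at ING1. All 28 exceeded the 677 bp of KMT2C in mean covered length, and HCFC1 and ING1 exceeded the 4402 bp of SETD1B. WDR82, the subunit that links SETD1 complexes to RNA polymerase II, was the 1 gene of the 28 at which WT replicate 3 led all KO libraries by at least 500 bp. Its covered length was 4218, 3796 and 3683 bp in WT and 2811, 2811 and 2194 bp in KO. Such a lead was found at 5.53% of all promoters, so 1 of 28 is no more than the background.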

How the data were processed

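H3K4me3 ChIP-seq was carried out on 3 WT and 3 ZBTB48 KO clones of IFNγ-treated U2OS cells. Per the methods and processing notes, the authors used Trimmomatic on the reads, mapped them to GRCh38 by Bowtie2 2.3.5.1 and dropped those that were unmapped, duplicate or multimapping. They ran MACS2 2.1.1.2 in broad mode on each library at a q threshold of 0.05. Each deposited list gives a fold enrichment ratio, averaged over a broad peak, and −log10 values of p and q, as the authors' peak caller wrote them. The deposited score is its display value and was not used. The lists carry no counts, so depth, counting intervals and the authors' read-based test could not be had here. A peak missing from a list is a peak not called and is weaker than absence of the mark.

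Only peaks of chromosomes 1 to 22, X and Y entered, with 1-based positions. The 5′ ends came from GENCODE release 44 (MANE Select for 19061 of 20033 protein-coding genes, else canonical). Covered length summed the bp of a window of 3 kb on each side of the 5′ end that lay in a peak. The genotypes were compared by an exact permutation test (two-sided, 20 assignments), with Benjamini-Hochberg adjustment over all 14422 covered promoters. The relative covered length was divided by the library median over covered promoters. Groups were taken from the labels. The 10 genes are all named, and of the 28 other genes those that separated on the relative scale, lacked a peak, or were longest or shortest in their list. PAGR1 and WDR82, and the lineage genes, were named after their values were seen. The comparison of KMT2C with promoters of at least its CpG count was also chosen after its values were seen. The 10 genes, the lists and the tests were chosen with earlier results of these data known. Replicate numbers did not pair the clones (correlations of deviations −0.0095, 0.017 and 0.093). At most 2 peaks were identical between any 2 lists. Words of 50 and 100 bases were counted on both strands of the hg38 reference. Alternatives were other peak thresholds, windows and 5′ ends, merging of peaks, percentiles, a replicate block, leaving out each library, and, added after the data were seen, peak width. The counting was tested on simulated lists. Python 3.11.15, numpy 2.4.6, scipy 1.17.1, numba 0.67.0 and matplotlib 3.10.9 were used.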

Additional observations from a re-analysis of the deposited data

How the results depend on the processing

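Under 14 settings, the WT minus KO difference of single genes kept its direction in 135 of 140 values. The same share over all promoters was not computed, and their median difference in the main setting was also positive, at 965 bp. The q threshold, lists cut to equal numbers of peaks, merging of peaks and the replicate block returned the main differences unchanged. The count is therefore no measure of how firm a difference is. The difference was 0 at KMT2A and KMT2B with the 1 kb window, where all 6 libraries covered the whole window. The direction turned at KMT2C without WT replicate 3 (−10.8 bp) or without KO replicate 2 (−45.5 bp), its range over the libraries left out being −45.5 to 126 bp, and WDR5 for WT replicate 3 against the KO libraries (−292 bp). The count of 5 genes with all WT above all KO (50.8% of promoters) became 0 with a fold enrichment of at least 4 (31.7%), 3 with percentiles in place of bp (7.20%), and 5 to 9 when a library was left out. It was 9 without WT replicate 3 or KO replicate 1, where 90.9% and 80.2% of promoters separated. The count of 2 on the relative scale (5.99% of promoters) became 0 with a fold enrichment of at least 4 (2.64%) or a window of 1 kb (7.68%), 1 with the 5′ ends of all transcripts (6.28%), 4 for WT replicate 3 against the KO libraries (25.02%) and 3 with peak width (6.4%). It was 2 to 3 with a library left out, 3 without WT replicate 3 (16.7%). The other direction on that scale moved too. With the 1 kb window all WT lay below all KO at KMT2A, KMT2B and WDR5 (22.27% of promoters). Without WT replicate 3 they did so at SETD1A, KMT2A, KMT2C and KMT2D (31.9%). WT replicate 3 lay below all KO libraries at KMT2A and WDR5 (25.3%). No gene did so with a fold enrichment of at least 4 (6.53%). A fold enrichment of at least 4 left 1 of the 10 genes with a peak within 3 kb, and 1 with a peak over the 5′ end, in all 6 libraries. The median difference became 2764 bp with that threshold, 166 bp with the 1 kb window, 269.5 bp for WT replicate 3 against the KO libraries, and 1069 to 2104 bp with a library left out. The cause of these shifts was not tested, apart from the order of fold enrichment given above. With a replicate block the difference for SETD1B stayed at 2619 bp (exact permutation p = 0.25, the smallest that design allows), and no call changed. The number of clones, 3 and 3, limits p to 0.1, and the lists give no depth.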
